A study of Arabidopsis thaliana with 29 samples.

Results

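Late embryogenesis abundant (LEA) proteins are small, very hydrophilic proteins that seeds build up as they prepare to dry. Their genes are known targets of abscisic acid, the hormone of seed maturation, and of the seed transcription factors ABI3 and ABI5. The proteins are thought to shield membranes and other proteins as water is lost. The 10 LEA genes described here were chosen by name from that family, and all 10 were among the 33341 genes of the table of total reads. The other 41 LEA genes on a list of 51 served for comparison.

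The embryos were Arabidopsis thaliana hybrids between the accessions Tsu-1 and Col-0, made in both directions and sampled at 7 stages from the zygote through octant, globular, heart, torpedo and bent to the mature embryo. Tsu-1 × Col-0 embryos had a Tsu-1 mother and a Col-0 father, and Col-0 × Tsu-1 embryos had a Col-0 mother and a Tsu-1 father. Both directions give the same nuclear genotype, with 1 allele of each accession. Unfertilized ovules of Col-0 alone were also sequenced. The 29 libraries fell into 15 groups of 2, except that Col-0 × Tsu-1 zygotes had 1 library, itself the sum of 3 technical libraries. Embryos were dissected by hand and washed to remove maternal tissue. Polyadenylated RNA was amplified before library preparation, so levels include any unequal amplification. The labels call the replicates biological, and p-values measure the spread between these samples.

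Library totals ran from 0.69 M to 60.4 M reads, and the shallowest was Tsu-1 × Col-0 bent replicate 2. Levels below are CPM, reads relative to a library total scaled by edgeR's TMM method, which aims to make most genes comparable between libraries. This was not reached everywhere, as the median log2 difference of all genes between crosses at bent was -0.34. Scaled totals ran from 29.4% to 162% of the reads, with 60.6% in Tsu-1 × Col-0 zygote replicate 1 and 102.9% in replicate 2. The lowest were at mature, where storage protein transcripts took much of a library. At mature, the 9 seed storage protein genes held 16.1% and 16.3% of the reads in Tsu-1 × Col-0 embryos, against 55.7% and 49.7% in Col-0 × Tsu-1 embryos. The scaled totals were 62.7% and 56.5% of the reads in the Tsu-1 × Col-0 libraries, and 29.4% and 38.5% in the Col-0 × Tsu-1 libraries. Transcription factors of embryo identity (LEC1, WOX2, LEC2 and FUS3) summed to 18.2 CPM or more in every embryo library, against 3.57 and 21.5 CPM in the ovules. The 10 seed coat markers summed to 4512 to 10269 CPM in zygotes, 2422 to 3843 CPM at octant and 589 to 1298 CPM at globular. In the ovules they summed to 150 and 102 CPM. The early embryo samples were thus not free of these transcripts. In whole embryos, fewer cells of a type and less RNA per cell cannot be told apart.

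The 10 genes cover several classes of LEA protein. Positions come from RefSeq's annotation of TAIR10.1. EM1 (AT3G51810, chromosome 3, 19214722 to 19215831) and EM6, also called GEA6 (AT2G40170, chromosome 2, 16779552 to 16780368), encode Em proteins, named from the early methionine-labelled protein of wheat embryos. RAB18 (AT5G66400, chromosome 5, 26518277 to 26519447) is a dehydrin that responds to abscisic acid, and its gene overlaps AT5G66410 on the other strand. M17 (AT2G41260, chromosome 2, 17206452 to 17207698) and M10 (AT2G41280, chromosome 2, 17209697 to 17210423) are neighbours on the same strand with 1998 bases between them, and both are known as transcripts of late seed maturation. ECP63 (AT2G36640, chromosome 2, 15356830 to 15358619) and AT3G15670 (chromosome 3, 5309886 to 5310988) encode proteins of the LEA_4 class, which hold a repeated helical motif. ECP31 (AT3G22500, chromosome 3, 7971625 to 7972907) encodes a seed maturation protein (SMP) and lies near a relative of the same class, AT3G22490. LEA4-5 (AT5G06760, chromosome 5, 2089445 to 2090430) and LEA18 (AT2G35300, chromosome 2, 14862779 to 14863412) encode proteins of the LEA_1 class. How reads shared by related or adjoining genes were counted is not given in the sources used here, so ECP31 and RAB18 could hold reads of those other genes.

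The stretch of 250 bases before each annotated gene start was read from TAIR10.1 because most of the genes rose at bent or mature. The core of the abscisic acid response element, ACGTG on either strand, was present in 8 of 10 windows, against 22.9% of 27437 protein-coding genes. It occurred at 2 or more places in 7 of 10, against 4.99% of those genes, with overlapping matches joined and counted as 1 place. The RY element CATGCA, on either strand, was in 3 of 10 windows, against 8.43% of all. M17 and ECP31 had no ACGTG in this window. The RAB18 window, with ACGTG at 3 places, overlaps the gene AT5G66410. The 3 windows below run from 2 places with ACGTG to none, and hold the neighbours M17 and M10, whose levels differed most between crosses at mature. They are 5′ to 3′ on the strand of the gene, which is the minus strand for EM6 and the plus strand for M10 and M17. Capitals mark matches to ACGTG on either strand.
EM6, chr2:16780369-16780618: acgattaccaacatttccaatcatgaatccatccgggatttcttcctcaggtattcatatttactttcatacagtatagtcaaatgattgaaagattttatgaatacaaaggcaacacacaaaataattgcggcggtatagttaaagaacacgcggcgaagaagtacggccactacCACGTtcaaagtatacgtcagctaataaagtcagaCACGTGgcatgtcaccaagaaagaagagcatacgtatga
M10, chr2:17209447-17209696: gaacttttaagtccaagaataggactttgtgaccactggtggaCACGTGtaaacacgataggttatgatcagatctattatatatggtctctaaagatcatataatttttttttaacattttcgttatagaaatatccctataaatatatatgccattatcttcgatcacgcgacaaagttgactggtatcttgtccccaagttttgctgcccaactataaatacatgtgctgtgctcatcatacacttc
M17, chr2:17206202-17206451: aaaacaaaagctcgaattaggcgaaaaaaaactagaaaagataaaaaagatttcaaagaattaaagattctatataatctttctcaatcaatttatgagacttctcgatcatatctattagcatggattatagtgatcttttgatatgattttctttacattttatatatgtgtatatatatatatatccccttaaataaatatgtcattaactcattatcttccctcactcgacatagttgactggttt
The EM6 window holds ACGTG at 2 places, the M10 window at 1 and the M17 window at 0. These matches describe the sequence and show no binding.

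The first question was when in embryo development each gene reached its level. From octant to torpedo the genes were low in nearly every library, and at torpedo the highest value of any member was 4.24 CPM. RAB18 and AT3G15670 showed a low peak at globular. RAB18 had 38.6 and 49.3 CPM in Tsu-1 × Col-0 globular embryos, and 9.19 and 3.76 CPM in Col-0 × Tsu-1 globular embryos. At octant RAB18 had 1.88 and 2.11 CPM in Tsu-1 × Col-0 embryos, and 5.21 and 3.95 CPM in Col-0 × Tsu-1 embryos. The globular libraries of Tsu-1 × Col-0 thus stood above every octant library, while those of Col-0 × Tsu-1 overlapped them. Globular over octant, 3 of the 6 members tested rose and none fell, where 17% of all genes tested rose and 20% fell (edgeR quasi-likelihood test, Benjamini-Hochberg adjusted p under 0.05). EM1 had 16 reads over the octant libraries and 154 over the globular ones, and passed the filter on low counts mainly through the latter. The count thus cannot be read against the background. AT3G15670 had a log2 fold change of 3.43 ± 0.39 (SE, adjusted p = 0.0001), RAB18 of 2.42 ± 0.72 (adjusted p = 0.0207) and EM1 of 2.42 ± 0.81 (adjusted p = 0.0340). Without either Tsu-1 × Col-0 octant library AT3G15670 was the single member called, and the EM1 call was lost without 6 of the 8 libraries, each left out on its own. Seed storage protein transcripts summed to 44.7 and 340 CPM in the Tsu-1 × Col-0 globular libraries, against 31.2 and 28.0 CPM in the Col-0 × Tsu-1 ones. Seed coat markers summed to 2422 to 3843 CPM in the octant libraries and 589 to 1298 CPM in the globular ones. The part of either in the globular over octant result was not tested.

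RAB18 fell again after globular. It had 1.25 and 4.81 CPM in Tsu-1 × Col-0 heart embryos, and 0.808 and 1.47 CPM in Col-0 × Tsu-1 heart embryos. At torpedo it had 0.153 and 0.202 CPM in Tsu-1 × Col-0 embryos, and 0.121 and 0 CPM in Col-0 × Tsu-1 embryos, from 9 reads in all 4 libraries. Heart over globular its log2 fold change was -3.28 ± 0.50 (edgeR, adjusted p = 0.00099), and torpedo over heart it was -3.99 ± 0.66 (adjusted p = 0.0039). It was the only member called in either step, among 7 tested at heart, where 10.4% of all genes fell and 6.49% rose. At torpedo 4 members were tested, and 10% of all genes fell and 10.1% rose. Without Tsu-1 × Col-0 heart replicate 1, AT3G15670 (log2 fold change -1.81) was also called at torpedo. Without Tsu-1 × Col-0 heart replicate 2, the calls of heart over globular were 4, with AT3G15670 (-2.29), EM1 (-3.68) and LEA4-5 (-2.39) beside RAB18 on the log2 scale. That library had 1884 CPM of storage protein transcripts, against 3.09 to 9.75 CPM in the other heart libraries, and without Tsu-1 × Col-0 heart replicate 1 the calls were 2. The 10 seed coat markers summed to 60.8 and 98.8 CPM in Tsu-1 × Col-0 heart embryos and 114 and 268 CPM in Col-0 × Tsu-1 heart embryos, with TT2 at 0 in Tsu-1 × Col-0 replicate 1. At globular they summed to 1027 and 1298 CPM in Tsu-1 × Col-0 and 607 and 589 CPM in Col-0 × Tsu-1 embryos, with none at 0, and their part in the RAB18 results was not tested. LEA18 at torpedo had 0.993 and 0.876 CPM in Tsu-1 × Col-0 embryos and 0.969 and 0.912 CPM in Col-0 × Tsu-1 embryos.

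**Figure D1:**
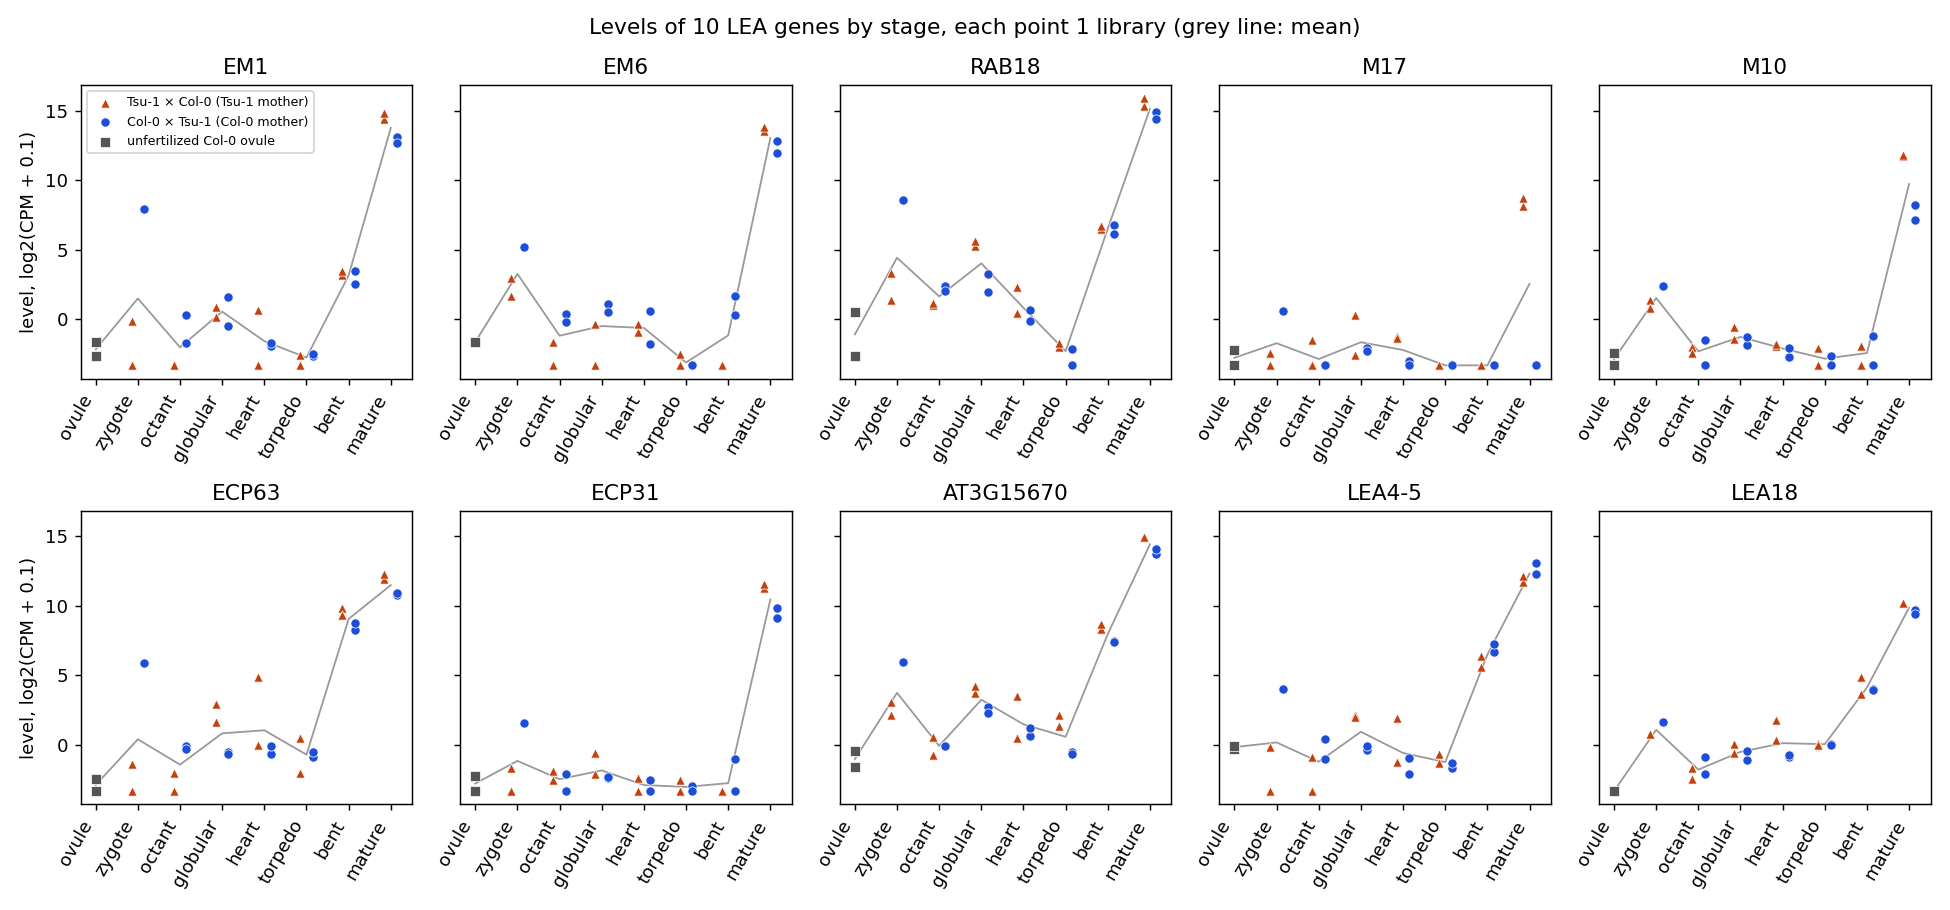
Level of each of the 10 LEA genes, as log2 of CPM plus 0.1, at each stage. Each point is 1 library (Tsu-1 × Col-0 triangles, Col-0 × Tsu-1 circles, unfertilized Col-0 ovules squares) and the grey line joins the stage means. EM1, EM6, M10 and ECP31 climbed mainly between bent and mature, ECP63 mainly between torpedo and bent, and the Col-0 × Tsu-1 zygote stood above the other zygote libraries for each gene.

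The next steps, bent over torpedo and mature over bent, differed in size between members. At bent, ECP63 had the highest level of the 10. It had 929 and 659 CPM in Tsu-1 × Col-0 bent embryos, and 303 and 445 CPM in Col-0 × Tsu-1 bent embryos. Torpedo embryos had 0.153 and 1.35 CPM of it in Tsu-1 × Col-0, and 0.454 and 0.608 CPM in Col-0 × Tsu-1. All 4 bent libraries were far above all 4 torpedo libraries. Bent over torpedo, 6 of the 6 members tested rose, where 22% of all genes tested rose and 22.4% fell. The log2 fold changes were 9.86 ± 0.59 for ECP63, 9.57 ± 0.45 for RAB18, 8.28 ± 0.46 for LEA4-5, 7.55 ± 0.44 for AT3G15670, 7.21 ± 0.52 for EM1 and 4.39 ± 0.32 for LEA18 (SE, adjusted p at most 6.2e-07). The other 4 members did not pass the filter on low counts in this comparison. EM1, RAB18 and LEA4-5 had 4, 9 and 23 reads over the torpedo libraries and passed it through the bent ones, so the count of 6 cannot be read against the background.

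Those 4 were EM6, M10, ECP31 and M17, and they were nearly silent at bent. In Tsu-1 × Col-0 bent embryos EM6 had 0 and 0 reads, ECP31 0 and 0, and M10 2 and 0. In Col-0 × Tsu-1 bent embryos EM6 had 65 and 8 reads, ECP31 8 and 0, and M10 7 and 0.5. M17 had no read in any bent or torpedo library. A count of 0 allows up to 0.248 CPM in Tsu-1 × Col-0 bent replicate 1 and 3.72 CPM in replicate 2, the shallow library, taking 3 reads as the limit and counting error alone. EM6 summed to 73 reads at bent and 1 at torpedo, a pooled ratio of 133 with an exact 95% counting interval of 23.1 to 5326.

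At mature, every gene but M17 had at least 138 CPM in each library. Mature over bent, 9 of the 9 members tested rose, where 25.3% of all genes tested rose and 29.2% fell. EM6, M10 and ECP31 passed the filter through the mature libraries, so a rise was fixed for them, and the count cannot be read against the background. EM6 had 11990 and 14656 CPM in Tsu-1 × Col-0 mature embryos, and 7063 and 3962 CPM in Col-0 × Tsu-1 mature embryos. The bent libraries gave 0 to 3.15 CPM, and even the limit of 3.72 CPM in the shallow one is far below these levels. Its log2 fold change was 12.90 ± 1.24 (edgeR, adjusted p = 3.5e-05). ECP31 followed with 12.78 ± 0.95, M10 with 11.76 ± 0.97 and EM1 with 10.63 ± 0.53. RAB18 rose by 8.67 ± 0.43, AT3G15670 by 6.50 ± 0.37, LEA4-5 by 5.88 ± 0.42 and LEA18 by 5.72 ± 0.35, again as log2 fold changes with SE. ECP63 had the smallest second step of the 9, at 2.45 ± 0.31 (adjusted p = 0.00014). M17 was not tested. Its 4035 reads at mature were all in Tsu-1 × Col-0 embryos, and Col-0 × Tsu-1 embryos had 0 at bent and at mature. The rise was thus seen in Tsu-1 × Col-0 embryos alone. With the crosses pooled, M17 was at least 2386-fold higher at mature, with a limit of 3 reads over the bent libraries.

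Levels at bent as a share of those at mature put the genes in order. By bent, ECP63 had reached 17.4% of its mature level in Tsu-1 × Col-0 embryos and 20.2% in Col-0 × Tsu-1 embryos. For LEA18, LEA4-5 and AT3G15670 that share was 1.13% to 2.08% in either cross. RAB18 had reached 0.186% in Tsu-1 × Col-0 and 0.343% in Col-0 × Tsu-1 embryos, and EM1 0.0392% in Tsu-1 × Col-0 and 0.105% in Col-0 × Tsu-1 embryos. EM6, M10 and ECP31 were at 0.0781% or less in both crosses. These shares are ratios of group means of 2 libraries, with no test of their differences.

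**Figure D2:**
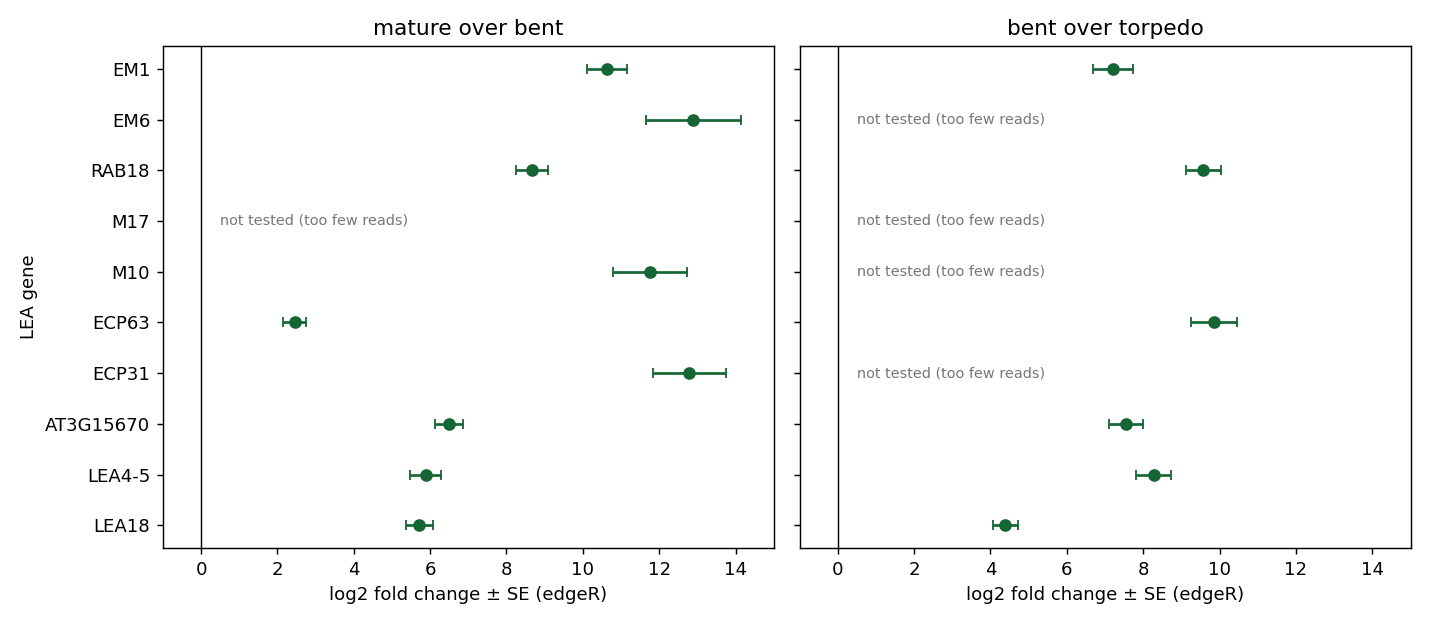
Log2 fold change with SE of each LEA gene for mature over bent (left) and bent over torpedo (right), from edgeR fits of the 8 libraries of each pair of stages. ECP63 had 2.45 on the left and 9.86 on the right, while EM6, M10 and ECP31 had 11.76 to 12.90 on the left and too few reads to be tested on the right.

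Within mature embryos, levels per kilobase of exon put RAB18 first in both crosses. In Tsu-1 × Col-0 embryos RAB18 had 37914 and 55919 CPM per kb, AT3G15670 30837 and 31911, EM1 23686 and 31278, and EM6 16652 and 20355. M10, LEA4-5, ECP63, ECP31, LEA18 and M17 followed in that order, with M17 at 248 and 366 CPM per kb. Of neighbours in that order, AT3G15670 overlapped EM1 and ECP63 overlapped ECP31, and the others did not overlap. In Col-0 × Tsu-1 embryos RAB18 had 28745 and 19773 CPM per kb, AT3G15670 13150 and 17204, EM1 9775 and 7009, LEA4-5 5697 and 9736, and EM6 9810 and 5503. EM1, LEA4-5 and EM6 overlapped there, as did LEA18 and ECP63, and M10 was next to last at 492 and 229 CPM per kb. In the Tsu-1 × Col-0 order M10 stood above LEA4-5, ECP63, ECP31 and LEA18, and in the Col-0 × Tsu-1 order below all of them.

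The second question was whether the direction of the cross changed these levels. It was tested at torpedo, bent and mature, and not at the earlier stages. At globular, both Tsu-1 × Col-0 libraries stood above both others for RAB18, AT3G15670, LEA4-5, ECP63 and ECP31, the last from few reads. Both stood below for EM6, and the other members overlapped. In mature embryos M17 and M10 differed most. M17 had 282 and 416 CPM in Tsu-1 × Col-0 mature embryos, from 1409 and 2626 reads, against 0 and 0 reads in Col-0 × Tsu-1 mature embryos. A count of 0 allows up to 0.381 and 0.799 CPM in those libraries. M17 was at least 1382-fold higher in Tsu-1 × Col-0 embryos, with a limit of 3 reads over the Col-0 × Tsu-1 libraries (edgeR, adjusted p = 7.5e-08).

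M10, its neighbour, had 3459 and 3609 CPM in Tsu-1 × Col-0 mature embryos, and 296 and 138 CPM in Col-0 × Tsu-1 mature embryos. Every Tsu-1 × Col-0 library was above every Col-0 × Tsu-1 library, and the log2 fold change was 4.02 ± 0.57 (SE, adjusted p = 5.5e-05). ECP31 had 2546 and 3048 CPM in Tsu-1 × Col-0 mature embryos, and 910 and 565 CPM in Col-0 × Tsu-1 mature embryos. The groups did not overlap and the log2 fold change was 1.92 ± 0.54 (adjusted p = 0.0179). ECP31 missed the threshold without Tsu-1 × Col-0 replicate 1 (adjusted p = 0.0540), without Tsu-1 × Col-0 replicate 2 (0.0963) and without Col-0 × Tsu-1 replicate 2 (0.117), and was still called without Col-0 × Tsu-1 replicate 1. AT3G22490, the relative of ECP31 beside it, had 859 and 1182 CPM in Tsu-1 × Col-0 mature embryos, and 647 and 263 CPM in Col-0 × Tsu-1 mature embryos.

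These 3 were the members called higher in Tsu-1 × Col-0 at mature, of 10 tested, and none was lower, where 6.28% of all genes tested were higher and 8.67% lower. EM1 had 21910 and 28932 CPM in Tsu-1 × Col-0 mature embryos, and 9042 and 6484 CPM in Col-0 × Tsu-1 mature embryos, a log2 difference of 1.71 ± 0.79 that missed the threshold (adjusted p = 0.147). EM6 (1.27 ± 0.66), ECP63 (1.30 ± 0.79), AT3G15670 (1.05 ± 0.65), RAB18 (0.95 ± 0.75) and LEA18 (0.64 ± 0.42) also had positive log2 differences that missed it. LEA4-5 was the exception in sign, with 3402 and 4572 CPM in Tsu-1 × Col-0 embryos, and 5144 and 8792 CPM in Col-0 × Tsu-1 embryos, a log2 difference of -0.81 ± 0.70 (adjusted p = 0.469). Counting libraries alone, 9 of 10 members had both Tsu-1 × Col-0 libraries above both Col-0 × Tsu-1 libraries, where 30.0% of all genes did, and 1 of 10 had both below, where 27.5% did. A fit of the mature libraries alone called EM1, EM6 and ECP63 as well, which made 6. Over all genes that fit called 1932 higher and 2027 lower of 15672, in place of 1575 and 2172 of 25062.

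**Figure D3:**
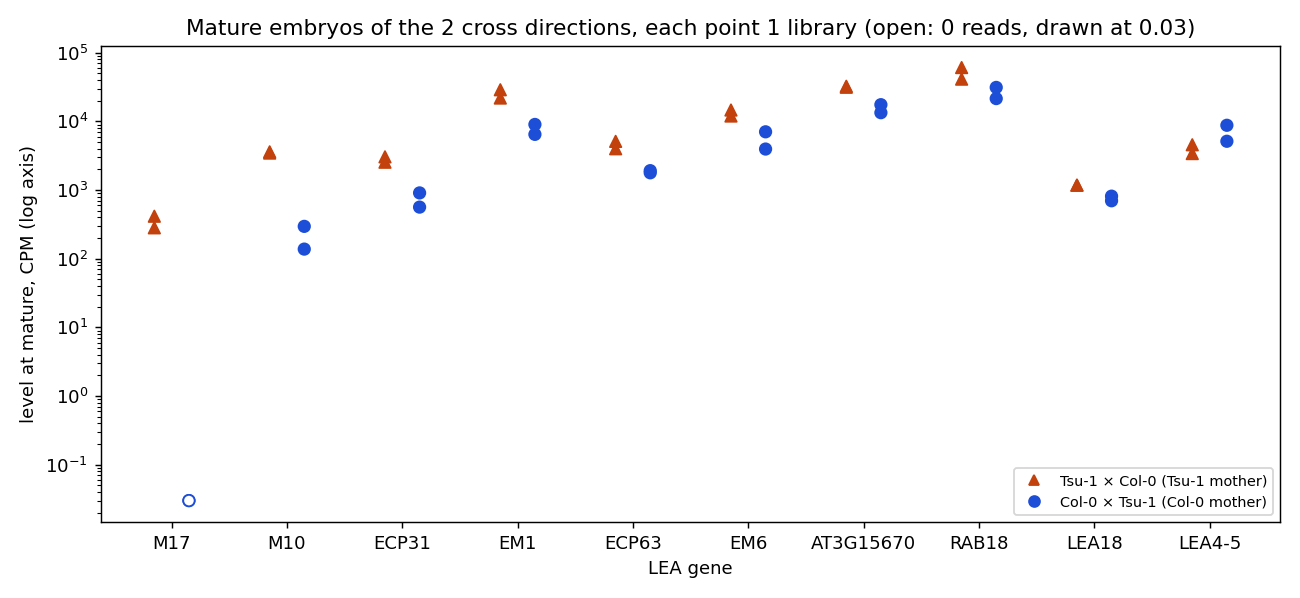
Level of the 10 LEA genes in mature embryos in CPM on a log axis, for Tsu-1 × Col-0 (triangles) and Col-0 × Tsu-1 (circles), each point 1 library. M17 had 282 and 416 CPM in Tsu-1 × Col-0 embryos and no read in Col-0 × Tsu-1 embryos (open circles, drawn at the foot), and LEA4-5 alone had its Tsu-1 × Col-0 libraries below the others.

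Other transcripts moved with this difference. Storage protein transcripts took the smaller share of reads in Tsu-1 × Col-0 embryos, as given above. The 8 endosperm markers summed to 100.1 and 106 CPM in Tsu-1 × Col-0 mature embryos, with none at 0, and to 667 and 278 CPM in Col-0 × Tsu-1 mature embryos, where FWA was at 0 in replicate 1 and PHE1 in replicate 2. The 10 seed coat markers summed to 9.01 and 13 CPM in Tsu-1 × Col-0 embryos, with AHA10 and TT2 at 0 in replicate 2. They summed to 17.8 and 31.4 CPM in Col-0 × Tsu-1 embryos, with TT16 and TT2 at 0 in replicate 1, and BAN, AHA10, TT16, TT2, TTG2 and LDOX at 0 in replicate 2. Their part in the LEA result was not tested. The 10 LEA genes together took 7.62% and 8.76% of the reads of Tsu-1 × Col-0 mature embryos, and 2.05% and 2.37% of those of Col-0 × Tsu-1 mature embryos.

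At bent, 1 of 10 members differed between crosses, EM6, whose 0 and 0 reads in Tsu-1 × Col-0 against 65 and 8 reads in Col-0 × Tsu-1 put it at least 11.3-fold lower in Tsu-1 × Col-0 (adjusted p = 0.0126). Of all genes 10% were lower there and 5.78% higher, and the median log2 difference of all genes was -0.34. By libraries alone, 2 of 10 members had both Tsu-1 × Col-0 libraries above both others and 2 had both below, where 16.4% and 34.6% of all genes did. Endosperm markers summed to 11.8 and 12.4 CPM in Tsu-1 × Col-0 bent embryos, with 4 of 8 at 0 in each library, and to 105 and 98.1 CPM in Col-0 × Tsu-1 bent embryos, with 0 and 3 at 0. Storage protein transcripts took 5.39% and 7.14% of the reads in Tsu-1 × Col-0 and 35.2% and 43.8% in Col-0 × Tsu-1 bent embryos, and the part of either in the result was not tested. The EM6 call was lost without Tsu-1 × Col-0 replicate 1 and without Col-0 × Tsu-1 replicate 1. In a fit of the bent libraries alone EM6 did not pass the filter on low counts and was not tested. ECP63 (1.09 ± 0.78), AT3G15670 (1.07 ± 0.65), LEA18 (0.55 ± 0.44), LEA4-5 (-0.95 ± 0.71), EM1 (0.21 ± 0.86) and RAB18 (0.06 ± 0.75) missed the threshold at bent, given as log2 difference and SE. At torpedo AT3G15670 had 2.52 and 4.24 CPM in Tsu-1 × Col-0 embryos, and 0.606 and 0.532 CPM in Col-0 × Tsu-1 embryos, with a log2 difference of 2.54 ± 0.76 (adjusted p = 0.0271). It was the 1 member called of 10, where 5.97% of all genes were higher and 7.62% lower, and leaving out any 1 of the 4 torpedo libraries ended the call (adjusted p from 0.0661 to 0.164). By libraries alone, 3 of 10 members were higher there without overlap and 0 lower, where 26.6% and 30.7% of all genes were.

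Whether the cross difference itself changed between bent and mature was tested as an interaction. Of 10 members 2 were called, both with a positive change, where 2.61% of all genes were called in that direction and 2.32% in the other. For EM6 the change was 9.47 ± 2.23 on the log2 scale (adjusted p = 0.0141), a fitted value that rests on a group with no reads and is no bound. Its difference had the opposite sign at bent, where it was lower in Tsu-1 × Col-0. For M10 it was 4.61 ± 1.35 (adjusted p = 0.0447), and it rested on few reads at bent. Without Col-0 × Tsu-1 bent replicate 1, which held 7 M10 reads, the M10 value was -0.35 (adjusted p = 0.979), and leaving out Col-0 × Tsu-1 mature replicate 2 or any 1 of the Tsu-1 × Col-0 libraries of either stage also ended its call. The EM6 call was lost without replicate 1 of either cross at bent. M17 gave no value, having no reads at bent. The median change of all genes was 0.26.

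The third question concerned the start of development, where these late genes were not all silent. The Col-0 × Tsu-1 zygote library held 381 CPM of RAB18, 246 of EM1, 64.0 of AT3G15670, 59.3 of ECP63 and 36.7 of EM6. The Tsu-1 × Col-0 zygote libraries held 9.74 and 2.53 CPM of RAB18, 0.795 and 0 of EM1, 8.53 and 4.28 of AT3G15670, 0.293 and 0 of ECP63, and 7.53 and 3.01 of EM6. The single Col-0 × Tsu-1 zygote library has no replicate, so this difference was not tested. In the same library storage protein transcripts summed to 553 CPM, against 48.3 and 35.0 CPM in the Tsu-1 × Col-0 zygotes, and their part was not tested.

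Octant over zygote, 7 of the 8 members tested fell and none rose, where 17.9% of all genes fell and 16.4% rose. M10, LEA18, EM1 and ECP63 had 5.5, 11, 16 and 23 reads over the octant libraries and passed the filter through the zygotes, so the count cannot be read against the background. The log2 fold changes of those 7 ran from -8.56 ± 1.09 for EM1 (adjusted p = 0.0038) to -3.42 ± 0.59 for LEA18 (adjusted p = 0.0068), while LEA4-5 missed the threshold at -2.87 ± 1.21 (adjusted p = 0.0997). Without the Col-0 × Tsu-1 zygote library 5 were called, and EM1 and ECP63, whose zygote reads lay almost wholly in that library, were no longer tested. RAB18 missed the threshold in 5 of the 7 fits that left out 1 library. Without Col-0 × Tsu-1 octant replicate 1 there were 4 calls and without its replicate 2 there were 5. The 3 reads of M17 at octant against 87 at zygote gave a pooled ratio of 0.0628, with an exact 95% counting interval of 0.0127 to 0.190, and 85 of those 87 reads were in the Col-0 × Tsu-1 zygote library. Seed coat markers summed to 4512 to 10269 CPM in the zygote libraries and 2422 to 3843 CPM in the octant ones. Their part in the octant over zygote result was not tested.

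Zygotes were also set against unfertilized ovules. The ovules were Col-0 alone, which is the mother's accession for the Col-0 × Tsu-1 zygote but not for the Tsu-1 × Col-0 zygotes, so accession and stage cannot be told apart there. LEA18 had 1.63 and 1.65 CPM in Tsu-1 × Col-0 zygotes and 3.05 CPM in the Col-0 × Tsu-1 zygote, against 0 and 0 reads in the ovules. It was at least 34.1-fold higher in zygotes, with a limit of 3 reads over the ovules (edgeR, adjusted p = 0.0344). EM6 had 0.225 and 0.217 CPM in the ovules, and its log2 fold change was 6.12 ± 1.40 (adjusted p = 0.0425). M10 had 2.51 and 1.65 CPM in Tsu-1 × Col-0 zygotes and 5.13 CPM in the Col-0 × Tsu-1 zygote, against 0.0843 and 0 CPM in ovules. Its log2 fold change was 5.48 ± 1.25 (adjusted p = 0.0425). The pooled ratio was 55.0, and it rests on 3 reads in the ovules.

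These 3 were the members called of 7 tested, where 4.87% of all genes were higher and 3.93% lower. LEA18, EM6 and M10 had 0, 9 and 3 reads over the ovule libraries and passed the filter through the zygotes. The count thus cannot be read against the background. AT3G15670 (6.17 ± 1.57, adjusted p = 0.0508), RAB18 (8.14 ± 2.81, adjusted p = 0.104) and EM1 (9.85 ± 3.84, adjusted p = 0.137) had large log2 fold changes with wide errors. LEA4-5 had 0.73 and 0.868 CPM in the ovules, and its log2 fold change was 2.85 ± 1.97 (adjusted p = 0.366). Without the Col-0 × Tsu-1 zygote 5 members were called, with AT3G15670 and RAB18 added. Over all genes, that fit called 4975 higher and 6385 lower of 22043, in place of 1134 and 915 of 23292. Leaving out Tsu-1 × Col-0 zygote replicate 1 or 2 called 0 members in edgeR, with 5 and 6 at an unadjusted p under 0.05. Of 22143 and 23741 genes tested, 428 and 242 were then higher, and 204 and 82 lower. Leaving out either ovule library ended every call, of members and other genes alike. LEA18 then had log2 fold changes of 8.73 without replicate 1 and 9.10 without replicate 2. EM6 had 6.06 and 6.05 in that order, and M10 9.28 and 5.08. The 10 seed coat markers summed to 10269 and 4512 CPM in Tsu-1 × Col-0 zygotes and 4652 CPM in the Col-0 × Tsu-1 zygote, with none at 0. They summed to 150 and 102 CPM in the ovules, with AHA10 at 0 in replicate 2, and their part in the result was not tested.

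**Figure D4:**
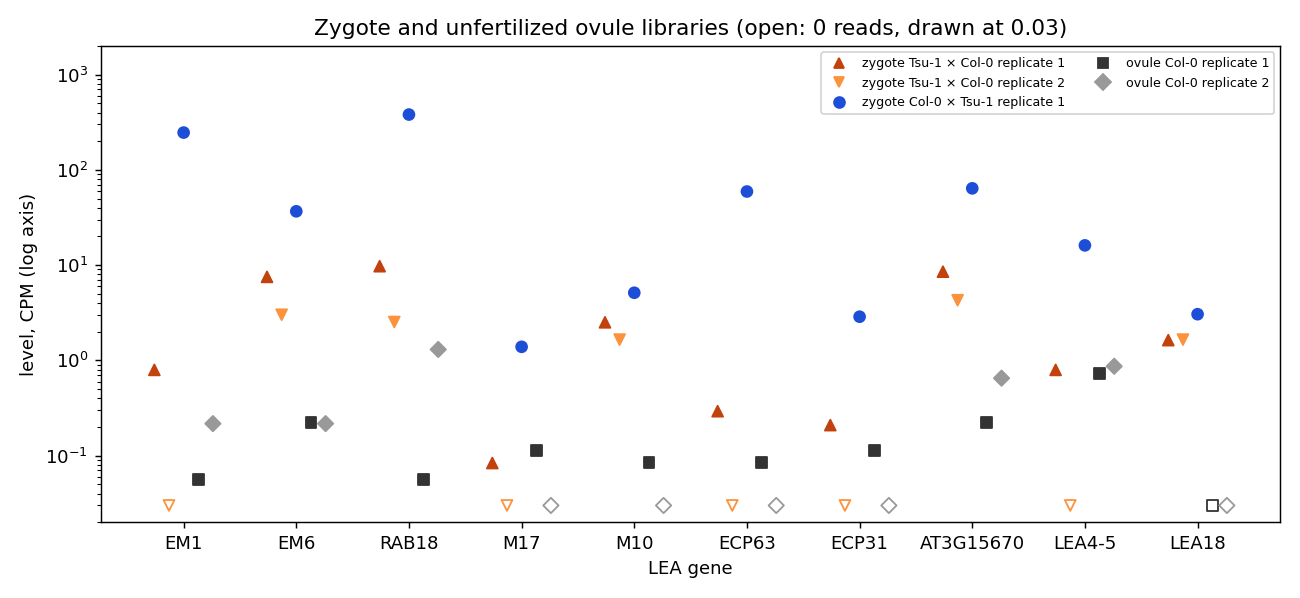
Level of the 10 LEA genes in CPM on a log axis in the 3 zygote and 2 ovule libraries, with open symbols for 0 reads drawn at the foot. The Col-0 × Tsu-1 zygote (circles) stood above the Tsu-1 × Col-0 zygotes (triangles) for each gene, and LEA18 had 1.63 to 3.05 CPM in zygotes and no read in ovules.

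The last question was which parental allele the reads came from. The authors' deposited table of parental contributions gives, for each stage and cross, 1 pooled value per gene, the maternal fraction of reads that cover a variant between the accessions. It holds values for exons, used here, and it covered 5 of 10 members, EM6, ECP31, AT3G15670, LEA4-5 and LEA18. Values were turned into the share of the Col-0 allele, which is the maternal allele in Col-0 × Tsu-1 and the paternal allele in Tsu-1 × Col-0. A call needed a deposited adjusted p under 0.05 and no fewer than 10 variant reads in each cross.

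LEA18 carried mostly the Col-0 allele in zygotes, whichever parent gave it. In the authors' deposited table the Col-0 share of LEA18 was 99.0% in Tsu-1 × Col-0 zygotes (adjusted p = 8.0e-05, 20 variant reads) and 97.7% in Col-0 × Tsu-1 zygotes (adjusted p = 2.3e-05, 148 variant reads). The Col-0 allele is thus the father's in the first cross and the mother's in the second. LEA18 was the 1 member called of 3 with enough reads, where, in the authors' deposited table, calls at zygote went to Col-0 for 1.96% of all genes, to Tsu-1 for 1.11%, to the mother for 41.1% and to the father for 0.225%. At globular the authors' deposited table gave 98.8% Col-0 in Tsu-1 × Col-0 (adjusted p = 0.0365, 12 variant reads) and 73.5% in Col-0 × Tsu-1 (adjusted p = 0.586, 13 variant reads), so it was not called.

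No member was called at octant (1 with enough reads), globular (3) or heart (2) in the authors' deposited table, and at torpedo none had enough reads in both crosses. Over all genes, calls for the mother, the father, Col-0 and Tsu-1 took 26.9%, 0.123%, 1.22% and 0.606% at octant, and 1.90%, 0.0240%, 1.01% and 0.744% at globular, in the authors' deposited table. The same calls took 0.219%, 0%, 0.852% and 0.610% at heart in the authors' deposited table.

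LEA4-5 and AT3G15670 did not meet the rule at zygote. The authors' deposited table gave LEA4-5 a Col-0 share of 98.1% in Tsu-1 × Col-0 zygotes (adjusted p = 0.0037, 13 variant reads) and 73.7% in the Col-0 × Tsu-1 zygote (adjusted p = 0.313, 598 variant reads). AT3G15670 had 21.3% Col-0 in Tsu-1 × Col-0 zygotes (adjusted p = 0.0709, 209 variant reads) and 88.6% in the Col-0 × Tsu-1 zygote (adjusted p = 0.0568, 2594 variant reads) in the authors' deposited table. In both crosses the mother's allele of AT3G15670 was thus the larger share at zygote, at 78.7% in Tsu-1 × Col-0 and 88.6% in Col-0 × Tsu-1 in the authors' deposited table. At octant the authors' deposited table had 89.9% Col-0 for AT3G15670 in Tsu-1 × Col-0 (adjusted p = 0.0383, 21 variant reads) and 78.6% in Col-0 × Tsu-1 (adjusted p = 0.187, 14 variant reads). At globular its Col-0 share in the authors' deposited table was 87.6% in Tsu-1 × Col-0 (adjusted p = 0.0892, 161 variant reads) and 59.9% in Col-0 × Tsu-1 (adjusted p = 0.897, 263 variant reads).

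From bent on, both alleles were read at near equal shares. In the authors' deposited table the Col-0 share of the 3 members with 10 or more variant reads at bent was 41.9% to 58.5% in Tsu-1 × Col-0 and 46.4% to 55.8% in Col-0 × Tsu-1. At mature the 5 members ran from 45.6% to 59.2% in Tsu-1 × Col-0 and from 42.6% to 57.8% in Col-0 × Tsu-1, in the authors' deposited table. The reads behind them at mature went from 146 for ECP31 to 215887 for AT3G15670 in Tsu-1 × Col-0, and from 90 for EM6 to 93296 for AT3G15670 in Col-0 × Tsu-1. No member was called at bent or mature in the authors' deposited table, where calls for Col-0 took 0.794% of all genes and calls for Tsu-1 0.576% at bent, and 0.884% and 0.663% at mature. Calls for the mother took 0.0512% at bent in the authors' deposited table. ECP31, which differed in level between crosses at mature, had Col-0 shares of 50.3% in Tsu-1 × Col-0 (146 variant reads) and 53.5% in Col-0 × Tsu-1 (454 variant reads) in the authors' deposited table. M17 and M10 are among the 5 members with no row there, so the parental alleles of those genes were not analysed here.

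**Figure D5:**
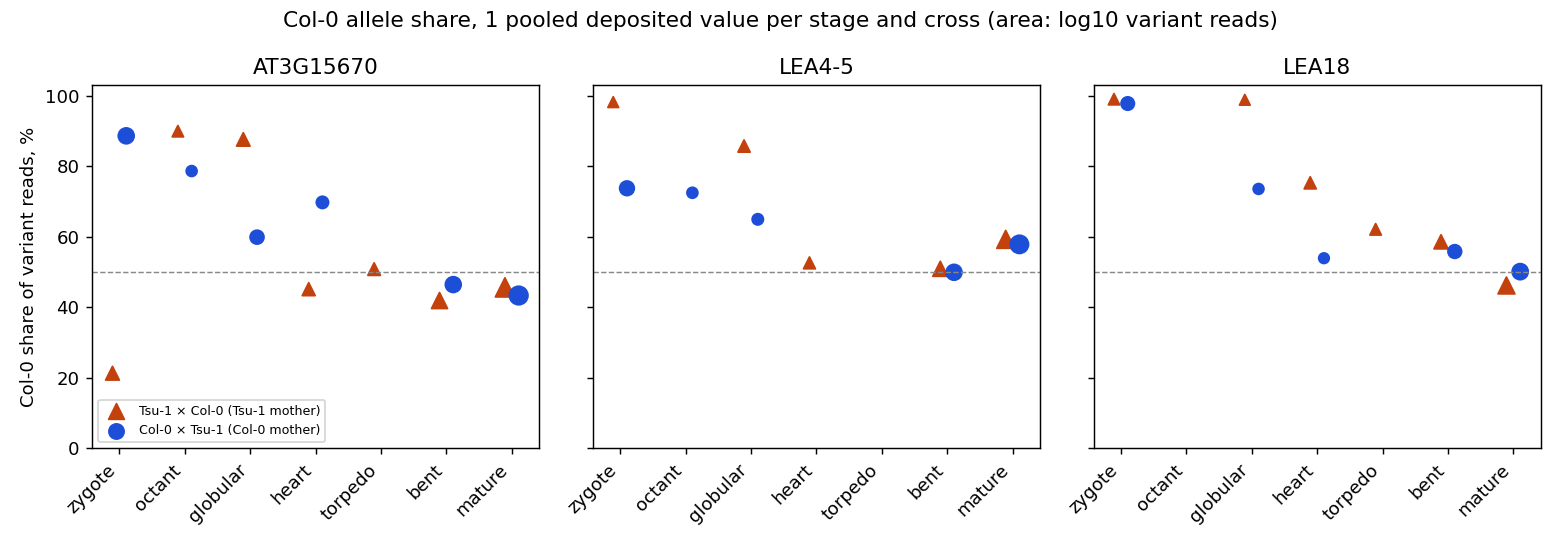
Share of variant reads from the Col-0 allele in percent at each stage, for Tsu-1 × Col-0 (triangles) and Col-0 × Tsu-1 (circles), as 1 pooled value per stage and cross in the authors' deposited table with at least 10 variant reads; larger symbols have more reads. LEA18 lay at 99.0% in Tsu-1 × Col-0 and 97.7% in Col-0 × Tsu-1 zygotes, and AT3G15670, LEA4-5 and LEA18 lay between 41.9% and 59.2% at bent and mature.

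The other 41 LEA genes held both rising and falling members at the late stages. Bent over torpedo, 17 of the 26 tested rose and 8 fell, with a median log2 fold change of 3.51, against 7.91 for the 6 members tested. Mature over bent, 22 of the 30 tested rose and 5 fell, with a median of 3.23, against 8.67 for the 9 members tested. These medians cover the genes that passed the filter, and the difference between the lists was not tested. The median over all genes was -0.04 in the first step and -0.02 in the second. Of the dehydrins other than RAB18, 3 rose and 4 fell at bent among 8 tested, where COR47, ERD10, ERD14 and AT4G38410 fell, and 4 rose and 2 fell at mature among 7 tested. Of the LEA_4 genes other than ECP63 and AT3G15670, 9 rose and 1 fell at bent among 10 tested, and 10 rose and 1 fell at mature among 12.

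The 6 of these with the highest mean level at mature were AT3G53040, AT3G17520, AT4G21020 and LEA7 of the LEA_4 class, the LEA_1 gene AtLEA4-1, and the dehydrin LEA (AT2G21490). All 6 rose in both steps. AT3G17520 had log2 fold changes of 12.37 ± 0.58 at bent and 4.38 ± 0.39 at mature. AT3G53040 had 3.29 ± 0.28 at bent and 8.46 ± 0.40 at mature, and it was also higher in Tsu-1 × Col-0 mature embryos. It had 12957 and 15905 CPM in Tsu-1 × Col-0 mature embryos, and 3707 and 3232 CPM in Col-0 × Tsu-1 mature embryos, a log2 fold change of 2.06 ± 0.54 (adjusted p = 0.0109). LEA7 had 6212 and 5938 CPM in Tsu-1 × Col-0 mature embryos, and 5836 and 5173 CPM in Col-0 × Tsu-1 mature embryos, with a log2 difference of 0.14 ± 0.51. Of the 38 other LEA genes tested between crosses at mature, 5 were higher in Tsu-1 × Col-0 and 1 was lower. Of all genes tested, 6.28% were higher and 8.67% lower, and the difference from these was not tested.

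Across the 15 groups, mean levels of the 10 genes on the log2 scale went together, with Pearson's r of 0.46 to 0.97 over 45 pairs and a median of 0.87. The closest pair was M10 and ECP31, at 0.97, and the most distant was M17 and ECP63, at 0.46. These groups share libraries and depth, and the late stages weigh heavily, so the values describe the profiles alone. Outside the LEA genes, the profiles most like the mean of the 10, among 10888 genes ranked, were those of AT1G54870 (r = 0.98), AT3G58450 (0.97), AT4G11310 (0.97), AT1G25422 (0.96) and AT4G25580 (0.96).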

How the data were processed

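Per the submitters' processing notes, STAR 2.7.0d, featureCounts 1.6.0 and edgeR were used with build TAIR10, with no role given for each. The authors deposited reads per gene as unscaled expected counts, of which 8.68% to 22.4% in a library were fractional, and they were rounded. They also deposited, per the file headers, pooled values for each stage and cross: a maternal fraction (shrunk towards 0.5), an adjusted p-value and an expected count of variant reads. The test behind those p-values is not given in the sources used here. The planned edgeR fit of alleles in single libraries needs unpooled values, so the deposited ones were read in both crosses, and 42 columns of intronic values were not used.

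edgeR 4.0.16 (R 4.3.3) gave all tests of total reads, with filterByExpr, TMM and two-sided quasi-likelihood F tests, adjusted by Benjamini-Hochberg over all genes tested, at a threshold of 0.05. Each step between stages used the 2 stages' libraries and a term for cross. Zygotes and ovules had a fit of their own. Crosses were compared within one model of the 15 group means, in which all 29 libraries share a spread (14 residual degrees of freedom). Alternatives were DESeq2 1.42.0, a replicate block, each library left out in turn, other scalings, no filter, fits of other sets of libraries, and, for parental calls, other read minimums and a stricter threshold. The fits were tested on simulated data. Log2 CPM for correlations used a prior count of 1. Bounds take 3 counts as the limit of a count of 0, and intervals cover counting error only, since reads are not independent molecules. Python 3.11.15, pandas 2.3.3 and matplotlib 3.10.9 did the rest.

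All 10 members are named, with the 6 other LEA genes highest at mature and the 5 genes of group mean log2 CPM of at least 5 most like the members in profile. AT3G22490 and the dehydrins that fell were named after their values were seen. Members, lists and tests were chosen with earlier results of these data known. RefSeq TAIR10.1 gave sequences and positions for 10 of 10 members, matched by locus. 1 sequence is not reported here.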

Additional observations from a re-analysis of the deposited data

Results flagged for a closer look

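ECP63 stood out in 1 heart library. It had 30.2 CPM in Tsu-1 × Col-0 heart replicate 2, from 314 reads, against 0.538 to 0.918 CPM in the other 3 heart libraries, a gap that passed Dixon's test on the log2 scale with 0.1 CPM added. Of 40 such groups of 4 libraries tested, 1 gave such a gap, and chance gives about 1 in 20. The same library had 11.4 CPM of AT3G15670 and 3.66 CPM of LEA4-5, each the highest of the heart libraries.

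The cross difference of EM6 changed between bent and mature by 9.47 on the log2 scale, and that of M10 by 4.61, both past the threshold of edgeR's interaction test. Each call was lost when certain single libraries were left out, as given above. At mature the EM6 difference was 1.27 ± 0.66 on the log2 scale, higher in Tsu-1 × Col-0 embryos, and missed the threshold (edgeR, adjusted p = 0.201). At bent EM6 had no read in Tsu-1 × Col-0 embryos.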

How the results depend on the processing

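Of the values of single members under every alternative, 925 kept their direction and their side of the threshold, 49 lost the call, 38 gained one and 1 reversed, the M10 interaction without Col-0 × Tsu-1 bent replicate 1. Leaving out 1 library gave M10 values of -0.35 to 9.01 there, and the cause was not tested. The counts of called members held within 1.5 times for bent over torpedo and mature over bent under each alternative run, and for the parental calls at zygote, bent and mature.

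With no filter on low counts, 5 members were called for globular over octant, 4 for heart over globular, 4 for torpedo over heart and 7 for zygote over ovule. In the group-means model of all libraries, which holds more samples, those counts were 6, 2, 3 and 8. For zygote over ovule, calls over all genes grew as well. They were 5552 higher and 7446 lower of 25062 in that model, and 2443 and 1676 of 31051 with no filter. The main fit had 1134 and 915 of 23292. The larger counts of members there thus cannot be read as stronger evidence. DESeq2 called 2 for heart over globular and 2 for torpedo over heart. Fits of the compared stages alone called 0 between crosses at bent (2 at an unadjusted p under 0.05, with EM6 not tested), 6 at mature and 1 in the interaction.

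Leaving out 1 library at a time gave 4 to 7 calls for octant over zygote, 1 to 4 for globular over octant, 1 to 4 for heart over globular, 1 to 2 for torpedo over heart, 6 for bent over torpedo, 9 to 10 for mature over bent and 0 to 5 for zygote over ovule. Between crosses it gave 0 at torpedo, 0 to 1 at bent, 2 to 3 at mature and 0 to 2 in the interaction. Where a group keeps 1 library, it is assumed to vary like the others.

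Replicate numbers did not pair the samples, since correlations of same-numbered deviations ran from -0.274 to 0.420. With the replicate block, 5 members were called for octant over zygote, where ECP63 (adjusted p = 0.0638) and RAB18 (0.0815) missed the threshold, 2 members were called for heart over globular and 0 for zygote over ovule (4 at an unadjusted p under 0.05).

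Scaling moved the median log2 difference of all genes by over 0.1 in some comparisons. Upper-quartile scaling moved it from -0.01 to 0.19 for octant over zygote, from 0.10 to -0.19 for zygote over ovule and from 0.00 to 0.11 between crosses at mature, and DESeq2 size factors moved it from -0.34 to -0.20 between crosses at bent. The split of all calls, higher and lower, was then 4000 and 2898 (in place of 3381 and 3687), 1073 and 1385 (in place of 1134 and 915), 2145 and 1882 (in place of 1575 and 2172) and 1995 and 2074 (in place of 1449 and 2506). Depth limits EM6, M10, ECP31 and M17 before mature, above all in the bent library of 0.69 M reads.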
